A study of Mus musculus with 6 samples.

Results

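The GATA, Tal1 and Klf1 factors are transcription factors and bridging proteins that act together in blood stem cells and in the red cell, platelet and mast cell lineages. Their 10 genes are Gata1, Gata2, Tal1, Lmo2, Ldb1, Lyl1, Nfe2, Gfi1b, Klf1 and Zfpm1, a list of gene symbols drawn up with earlier results of these data known. They were read by 12 of the 34945 array probe sets that name exactly 1 gene, and they are 10 of the 18193 genes measured in this way. Each gene is given by its brightest probe set, averaged over the 6 arrays, and the other probe sets of Gata2 and Zfpm1 are described separately.

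The study profiled mouse bone marrow cells on 6 Affymetrix expression arrays, 2 for each of 3 groups. The MN1 group held GFP-positive marrow cells carrying pSF91-MN1-IRES-GFP, a gammaretroviral vector for MN1, a transcriptional cofactor that drives myeloid leukaemia in mice when overexpressed. The MN1VP16 group held GFP-positive marrow cells carrying pSF91-MN1VP16-IRES-GFP, a construct that the labels describe only by this name; VP16 is a viral transcriptional activator. The Gr1Mac group was marrow sorted as Gr1-positive and CD11b-positive, surface proteins of granulocytes and monocytes. For both transduced groups, C57BL/6J donors had received 5-fluorouracil at 150 mg/kg for 4 days, their marrow was stimulated for 48 h with human IL6, mouse IL3 and mouse SCF, virus came from E86 producer cells, and the marrow went into lethally irradiated syngeneic recipients, from which GFP-positive cells were taken at 4 weeks. GFP marks any cell that carries the vector, whatever its lineage, and no empty-vector cells were analysed here, so the transduced groups also differ from Gr1Mac by transduction, transplantation and the sort. The labels do not say whether the Gr1Mac cells came from transplanted mice, give no ages, and leave unsaid whether arrays of 1 group come from different animals. The p-values therefore reflect array-to-array spread, possibly only technical within the MN1 and MN1VP16 groups. The Gr1Mac arrays were of opposite sex by Xist and Y-linked genes, given below, and so came from different animals.

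GATA1 and GATA2 bind GATA motifs in DNA, and the TAL1 protein, paired with an E protein, binds E-box motifs beside them. LMO2 and LDB1 hold these proteins together in 1 complex, ZFPM1 (also called FOG1) docks on GATA1, and KLF1 binds CACCC motifs of red cell genes. GATA2, TAL1, LYL1 and LMO2 are known for their part in stem and progenitor cells. GATA1, GFI1B and NFE2 are known for the maturation of red cells and megakaryocytes, and KLF1 for that of red cells.

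RefSeq promoter windows, the 250 bases before an annotated transcript start in build GRCm38.p6, were present for 8 of the 10 genes, 12 windows in all; Lmo2 and Nfe2 were not in the table. A GATA motif (AGATAA or AGATAG, or the same with a leading T in place of the first A, on either strand) lay in 4 of the 12 windows, an E-box (CANNTG) in 5 and CACCC on either strand in 10. Among all 32851 mouse promoters of that length, 26.5% held the GATA motif, 66.2% the E-box and 52.0% CACCC. The windows of Klf1 (chr8:84901732-84901981, plus strand), Gfi1b (chr2:28621983-28622232, minus strand) and Tal1 (chr4:115056176-115056425, plus strand) are shown because these genes were called in both comparisons with MN1 and the windows shown hold 1 GATA motif each. Tal1 has a further window (chr4:115057561-115057810, plus strand) that holds none of the 3 motifs, and Zfpm1, called in the same comparisons, has 1 window with no GATA motif, no E-box and 3 CACCC matches. The first Gata2 window (chr6:88193641-88193890, plus strand), which holds none of the 3 motifs, is shown for comparison. Each is written 5′ to 3′ on the gene's own strand, ends at the base before the transcript start, and has the GATA motif in capitals, which reads as its reverse complement in Klf1 and Tal1.
Klf1: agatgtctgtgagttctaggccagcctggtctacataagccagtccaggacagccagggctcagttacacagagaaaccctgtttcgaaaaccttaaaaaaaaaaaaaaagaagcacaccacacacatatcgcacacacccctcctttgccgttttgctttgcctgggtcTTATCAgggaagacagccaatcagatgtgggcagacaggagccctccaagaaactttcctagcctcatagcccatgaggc
Gfi1b: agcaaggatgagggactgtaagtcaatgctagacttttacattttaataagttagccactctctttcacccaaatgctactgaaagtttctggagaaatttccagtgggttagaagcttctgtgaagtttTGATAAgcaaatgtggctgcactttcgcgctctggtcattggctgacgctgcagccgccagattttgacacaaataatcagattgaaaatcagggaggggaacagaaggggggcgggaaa
Tal1: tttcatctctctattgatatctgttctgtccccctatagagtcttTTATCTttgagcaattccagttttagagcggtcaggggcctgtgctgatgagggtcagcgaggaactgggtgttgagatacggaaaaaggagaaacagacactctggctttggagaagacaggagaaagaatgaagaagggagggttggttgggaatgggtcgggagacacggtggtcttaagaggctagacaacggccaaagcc
Gata2: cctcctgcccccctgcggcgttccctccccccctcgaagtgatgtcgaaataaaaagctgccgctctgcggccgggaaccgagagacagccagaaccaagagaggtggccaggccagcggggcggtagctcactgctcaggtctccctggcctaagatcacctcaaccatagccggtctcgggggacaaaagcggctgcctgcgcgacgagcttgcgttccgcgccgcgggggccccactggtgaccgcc
The motif starts 80 bases before the transcript start in Klf1, 120 bases before it in Gfi1b and 205 bases before it in Tal1. The Gata1 window (chrX:7967911-7968160, minus strand), which lies inside the annotated span of the gene, held no GATA motif, 1 E-box and 2 CACCC matches. These are matches of letters, and no binding was measured.

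The arrays had medians of 5.36 to 5.43 log2 units, a closeness that the normalisation described below sets in advance. The Gr1Mac label was checked against Itgam, the gene of CD11b, which read 10.95 and 10.92 on the Gr1Mac arrays, 9.44 and 8.88 on the MN1VP16 arrays and 7.67 and 6.95 on the MN1 arrays; Ly6g and the Ly6c genes, which carry the Gr1 epitope, were not among the genes measured here. Both MN1 arrays and Gr1Mac array 1 were high in Xist and low in Y-linked genes, as in female cells. Both MN1VP16 arrays and Gr1Mac array 2 showed the reverse, as in male cells. Control features of the array split the arrays in another way, along the main axis of variation among the 30 bright ones. They were taken by name alone, whether or not they read mouse transcripts, and the part of biology in this split was not tested. The mean of the bright ones was 12.13 to 12.54 on the MN1 arrays and MN1VP16 array 1. It was 11.34 to 11.84 on MN1VP16 array 2 and the Gr1Mac arrays. Readings at or under 5.84 log2 units, the highest Xist reading on a Y-high array, are called dim. Against a dim group a fold is given as a lower bound, with the dim level in place of lower readings of the probe set used. It is no bound on sampling error or on the fold from another probe set of the gene.

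MN1 cells differed from Gr1Mac cells in nearly the whole group of factors. Gata1, Gata2, Tal1, Klf1, Gfi1b and Zfpm1 were 4.30 to 6.59 log2 units higher in MN1 cells, and Lmo2 and Ldb1 were 1.17 and 1.74 higher. Nfe2 was lower, and Lyl1 passed the test in neither direction. That makes 8 genes higher, 1 lower and 1 not called of 10, with a median difference of 4.38, where 17.3% of all genes were called higher and 12% lower and the median of all genes was −0.06. In marrow samples of this kind, fewer cells of a type and less RNA per cell cannot be told apart. A call here means a Benjamini-Hochberg adjusted p under 0.05 over all genes in limma, fitted to all 6 arrays.

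**Figure D1:**
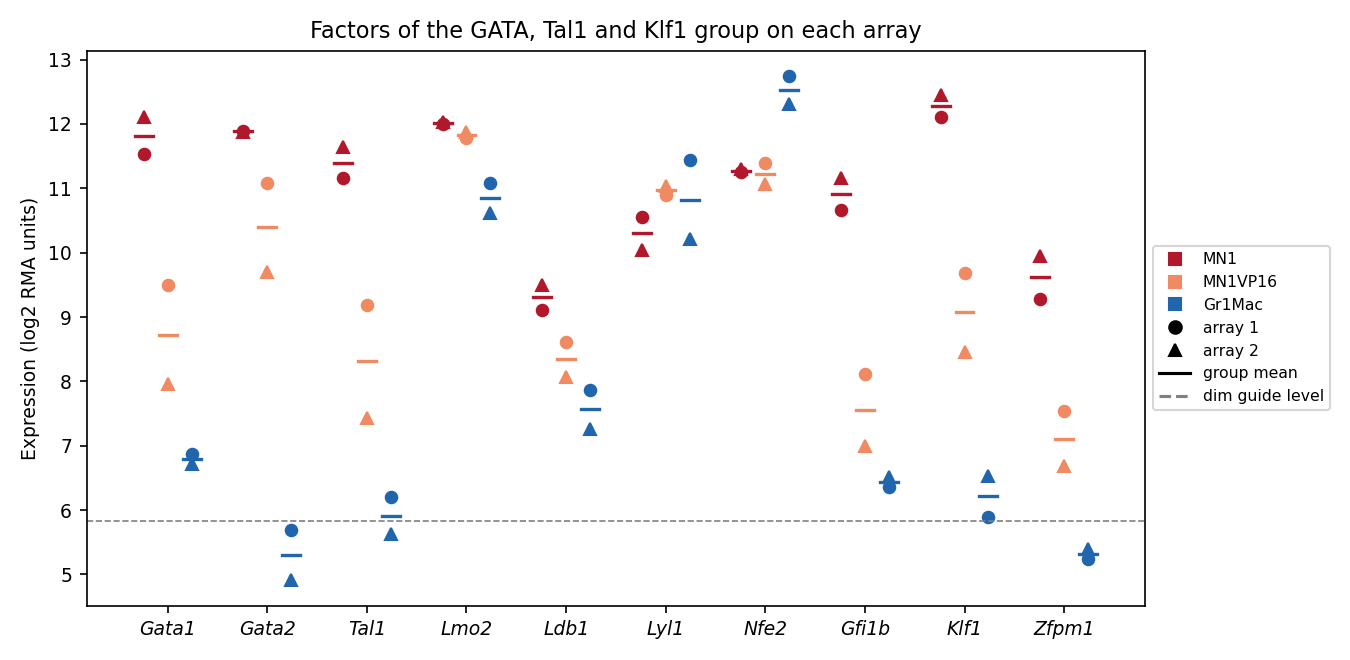
Log2 RMA level (vertical axis) of each of the 10 factors on each array, with circles for array 1, triangles for array 2, a short line for the group mean and a dashed line at the dim level of 5.84. For Gata1, Gata2, Tal1, Gfi1b, Klf1 and Zfpm1 both MN1 arrays lie above both MN1VP16 arrays, which lie above both Gr1Mac arrays.

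Among the GATA factors, Gata1, the master regulator of red cell and megakaryocyte maturation, read 11.53 and 12.11 log2 units on the MN1 arrays, 9.49 and 7.97 on the MN1VP16 arrays and 6.88 and 6.72 on the Gr1Mac arrays. The groups did not overlap, and the MN1VP16 arrays stood far apart from each other. Gata1 was 5.02 ± 0.49 (SE) log2 units higher in MN1 than in Gr1Mac cells, a 32.5-fold difference with a 95% interval of 14.1 to 74.9 (adjusted p = 0.00188). Gata2, which maintains stem and early progenitor cells and is needed by mast cells, read 11.89 and 11.88 on the MN1 arrays, 11.09 and 9.70 on those of MN1VP16 and 5.69 and 4.91 on those of Gr1Mac. Both Gr1Mac arrays were dim on this probe set, though not on the gene's other one, given further on, and all MN1 and MN1VP16 arrays were bright. Its difference on this probe set was 6.59 ± 0.48 with an interval of 5.42 to 7.76, at least 66.3-fold against the dim level (adjusted p = 0.00117). The other probe set gave a smaller difference, 3.34 ± 0.53.

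The bridging complex was less uniform. Tal1, a basic helix-loop-helix factor required for all blood formation, read 11.16 and 11.64 on the MN1 arrays, 9.19 and 7.43 on those of MN1VP16 and 6.21 and 5.62 on those of Gr1Mac. It was 5.48 ± 0.57 higher in MN1 than in Gr1Mac cells, or 44.7-fold with an interval of 17 to 117 (adjusted p = 0.00211). The groups were ordered MN1, MN1VP16, Gr1Mac without overlap, as for Gata1. Lmo2, the LIM-only protein that links TAL1 to GATA factors, read 12.01 and 12.02 on the MN1 arrays, 11.79 and 11.87 on those of MN1VP16 and 11.09 and 10.61 on those of Gr1Mac. It was thus bright on every array, and its rise of 1.17 ± 0.20 over Gr1Mac was a 2.24-fold difference (adjusted p = 0.00816). Ldb1, whose protein dimerises and brings distant DNA sites together, read 9.12 and 9.51 on the MN1 arrays, 8.61 and 8.07 on those of MN1VP16 and 7.87 and 7.26 on those of Gr1Mac. Its 3 groups also kept that order without overlap, and it was 1.74 ± 0.30 higher in MN1 than in Gr1Mac, or 3.35-fold (adjusted p = 0.00789). Without MN1 array 2, Lmo2 (adjusted p = 0.0594) and Ldb1 (adjusted p = 0.0591) lost the call.

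Lyl1, the close relative of Tal1, did not share its pattern. It read 10.56 and 10.05 on the MN1 arrays, 10.90 and 11.04 on those of MN1VP16 and 11.44 and 10.21 on those of Gr1Mac, so that the Gr1Mac arrays enclosed those of both other groups but for MN1 array 2. The difference of MN1 from Gr1Mac was −0.52 ± 0.41, with an interval of −1.53 to 0.49 (adjusted p = 0.411). It depended on the Gr1Mac array: without Gr1Mac array 2 Lyl1 was called lower in MN1 (−1.14, adjusted p = 0.0490), and without Gr1Mac array 1 the difference was 0.09 (adjusted p = 0.826).

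Klf1, Gfi1b and Zfpm1 gave large differences. Klf1, which activates adult globin and membrane genes, read 12.11 and 12.44 on the MN1 arrays, 9.68 and 8.46 on those of MN1VP16 and 5.90 and 6.53 on those of Gr1Mac. Klf1 was 6.06 ± 0.43 higher in MN1 than in Gr1Mac cells, or 66.9-fold with an interval of 32.2 to 139 (adjusted p = 0.00117). Its groups were well separated, and in this gene Gr1Mac array 2 was the higher of its pair. Gfi1b encodes a transcriptional repressor that recruits KDM1A and is known for the maturation of red cells and megakaryocytes. Gfi1b read 10.66 and 11.16 on the MN1 arrays, 8.12 and 7.0 on those of MN1VP16 and 6.36 and 6.52 on those of Gr1Mac. It was 4.47 ± 0.38 higher, or 22.2-fold with an interval of 11.6 to 42.5 (adjusted p = 0.00141). MN1VP16 array 2 lay close to the Gr1Mac arrays for Gfi1b, whereas MN1VP16 array 1 did not. Zfpm1 read 9.27 and 9.96 on the MN1 arrays, 7.53 and 6.69 on those of MN1VP16 and 5.23 and 5.4 on those of Gr1Mac. Both Gr1Mac arrays were dim on this probe set, and Zfpm1 was 4.30 ± 0.35 higher in MN1, at least 13.7-fold against the dim level (adjusted p = 0.00135). The gene's other probe set gave a smaller difference, 1.44 ± 0.22.

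Nfe2, the haematopoietic subunit of a factor that pairs with small MAF proteins in megakaryocytes and red cells, ran the other way. It read 11.25 and 11.31 on the MN1 arrays, 11.39 and 11.06 on those of MN1VP16 and 12.75 and 12.31 on those of Gr1Mac. Both Gr1Mac arrays were higher than all other arrays, and the transduced groups overlapped. Nfe2 fell by 1.25 ± 0.21 in MN1 relative to Gr1Mac, 2.38-fold (adjusted p = 0.00797), a call lost without MN1 array 2 (adjusted p = 0.0529).

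In this comparison 8 of the 10 genes had both MN1 arrays above both Gr1Mac arrays and 1 had both below, where 30.9% and 35.8% of all genes did so. The calls of Gata1, Tal1, Gfi1b, Klf1 and Zfpm1 held in all 15 settings tried and that of Gata2 in all 14 that measured its probe set. Some of these settings are the same fit and are not separate support. Here the fit of the 2 groups alone equals those without either MN1VP16 array. The fit with the Xist split as a block equals that without Gr1Mac array 2. Comparing MN1 with the Xist-high Gr1Mac array 1 alone, the differences of Gata1, Gata2, Tal1, Gfi1b, Klf1 and Zfpm1 were 4.94, 6.19, 5.19, 4.55, 6.38 and 4.38. The MN1 and Gr1Mac arrays lay on opposite sides of the control-feature split. With that split as a block, estimated from the MN1VP16 pair alone, the same genes differed by 3.50, 5.21, 3.72, 3.35, 4.84 and 3.45 and kept their calls, while Lmo2 (adjusted p = 0.112), Ldb1 (adjusted p = 0.192) and Nfe2 (adjusted p = 0.0617) did not.

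**Figure D2:**
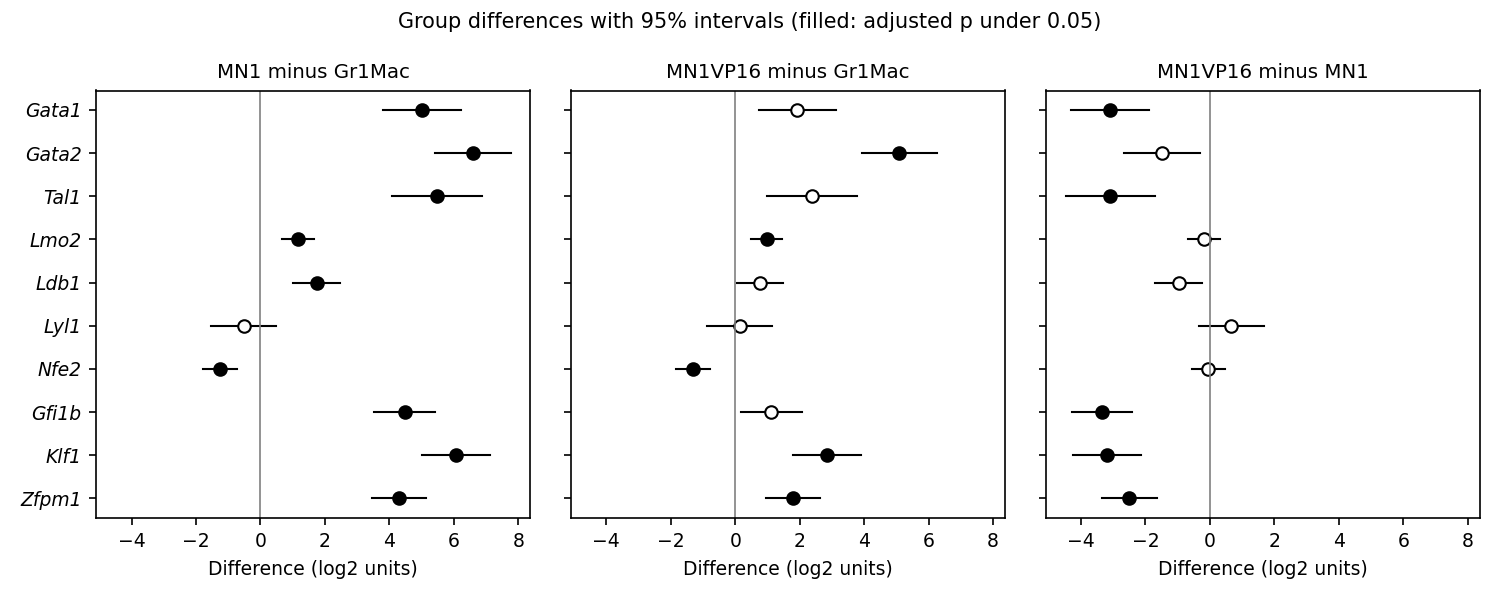
Differences between groups in log2 units (horizontal axis) for each factor, with limma's 95% intervals; filled circles mark an adjusted p under 0.05. The differences of Gata1, Tal1, Gfi1b, Klf1 and Zfpm1 run from 4.30 to 6.06 in MN1 minus Gr1Mac and from −3.35 to −2.50 in MN1VP16 minus MN1.

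MN1VP16 cells held less of 5 of the 10 factors than MN1 cells. Gata1, Tal1, Gfi1b, Klf1 and Zfpm1 were called lower, by 2.50 to 3.35 log2 units, and Gata2, Lmo2, Ldb1, Lyl1 and Nfe2 were not called. The count of 5 lower and 0 higher of 10 stands beside 2.7% of all genes called lower and 1.15% called higher, with a median of −2.00 over the factors and 0.03 over all genes. Gata2 and Ldb1 were lower only at an unadjusted p under 0.05 in limma, a threshold at which the share of all genes was not counted. The arrays did not overlap for 9 genes, 8 lower and 1 higher (Lyl1), where 29.2% and 30.5% of all genes did so.

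Gfi1b had the largest difference of the 10 genes in size, −3.35 ± 0.38, or 10.2-fold with an interval of 5.32 to 19.5 (adjusted p = 0.0204). Klf1 fell by 3.20 ± 0.43, or 9.21-fold with an interval of 4.43 to 19.1 (adjusted p = 0.0279). Gata1 fell by 3.09 ± 0.49, or 8.52-fold with an interval of 3.70 to 19.6 (adjusted p = 0.0354). These factors were thus several-fold lower in each MN1VP16 array than in either MN1 array. Tal1 fell by 3.09 ± 0.57, or 8.50-fold with an interval of 3.23 to 22.3 (adjusted p = 0.0474), and Zfpm1 by 2.50 ± 0.35, or 5.67-fold with an interval of 3.15 to 10.2 (adjusted p = 0.0284).

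These calls leaned on single arrays, as did those of all genes in this comparison, given in the last section. The losses below are therefore not a trait of these factors alone. Without MN1 array 2, 0 of the 5 were called (adjusted p = 0.151 for Gfi1b to 0.275 for Tal1), and 2 were called without MN1 array 1, Gfi1b and Zfpm1. Without MN1VP16 array 2, 3 were called, and without either Gr1Mac array, which enters here by the estimate of spread alone, 1 was, Gfi1b. The differences themselves moved less: over all settings Gata1 ranged from −3.85 to −2.33, Gfi1b from −3.91 to −2.79 and Klf1 from −3.83 to −2.59. Within the arrays on the high side of the control-feature split, MN1VP16 array 1 lay below the MN1 mean by 2.33 for Gata1, 2.21 for Tal1, 2.79 for Gfi1b, 2.59 for Klf1 and 2.08 for Zfpm1. Both MN1 arrays were Xist-high and both MN1VP16 arrays Y-high, so no value within that split can be had. With the split as a block, estimated from the Gr1Mac pair alone, the 5 differences ran from −3.83 for Klf1 to −2.50 for Tal1 and none was called (adjusted p = 0.264 to 0.410). With that block 0 of all 18193 genes were called in either direction in this comparison.

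The remaining factors gave intervals rather than calls. Gata2 was −1.49 ± 0.48 in MN1VP16 relative to MN1, a 2.81-fold difference with an interval of 1.25 to 6.34 (adjusted p = 0.140), and without MN1VP16 array 1 it was called (−2.18, adjusted p = 0.0472). Ldb1 was −0.97 ± 0.30 (adjusted p = 0.127). Lmo2 was −0.19 ± 0.20, with an interval of −0.68 to 0.30 (adjusted p = 0.658). Nfe2 was −0.05 ± 0.21, with an interval of −0.57 to 0.47 (adjusted p = 0.928). Lyl1 was 0.67 ± 0.41 higher in its mean, with an interval of −0.34 to 1.67 (adjusted p = 0.417). None of these 5 passed the test, and whether their change differs from that of the 5 factors called lower was not tested.

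Against Gr1Mac, MN1VP16 cells still held more Gata2, Klf1, Zfpm1 and Lmo2, and less Nfe2. Of the 10 genes 4 were called higher, 1 lower and 5 not, with a median of 1.46; of all genes 3.66% were called higher and 2.11% lower, with a median of −0.00. The 8 genes whose MN1VP16 arrays both lay above both Gr1Mac arrays, and the 1 below, stand beside 24.8% and 25.2% of all genes. This comparison and that of MN1 share the Gr1Mac arrays.

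Gata2 was 5.09 ± 0.48 higher, at least 23.6-fold (adjusted p = 0.0125). Klf1 was 2.86 ± 0.43 higher, or 7.26-fold with an interval of 3.49 to 15.1 (adjusted p = 0.0262). Zfpm1 was 1.80 ± 0.35 higher, at least 2.42-fold (adjusted p = 0.0428). Lmo2 was nearly as far above Gr1Mac as in MN1 cells, by 0.98 ± 0.20 or 1.97-fold (adjusted p = 0.0483). Nfe2 fell by 1.30 ± 0.21, 2.47-fold (adjusted p = 0.0304).

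The other five were not called. Gata1 lay 1.93 ± 0.49 above Gr1Mac (adjusted p = 0.0775), Tal1 2.39 ± 0.57 (adjusted p = 0.0674), Gfi1b 1.12 ± 0.38 (adjusted p = 0.149), Ldb1 0.77 ± 0.30 (adjusted p = 0.186) and Lyl1 0.15 ± 0.41 (adjusted p = 0.894). Without MN1VP16 array 2, Gata1 (2.69, adjusted p = 0.0227) and Tal1 (3.28, adjusted p = 0.0210) were called higher. The calls made were also few under other choices: without Gr1Mac array 2, 0 of the 4 rises were called (Gata2 4.70, adjusted p = 0.0628), 1 was called without either MN1 array and 2 were without MN1VP16 array 1 or Gr1Mac array 1, while Nfe2 lost its call whichever single array was left out (adjusted p = 0.0569 to 0.105). Calls over all genes in this comparison moved with single arrays as well, as given in the last section. Within the Y-high arrays, MN1VP16 lay above Gr1Mac array 2 by 2.01 for Gata1, 5.49 for Gata2, 2.69 for Tal1, 1.04 for Gfi1b, 2.55 for Klf1 and 1.71 for Zfpm1. On the low side of the control-feature split, MN1VP16 array 2 lay above the Gr1Mac mean by 1.17, 4.4, 1.51, 0.56, 2.25 and 1.37 for the same genes.

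The MN1VP16 arrays were split by these factors more than by most genes. Array 1 exceeded array 2 by 1.76 log2 units for Tal1, 1.53 for Gata1, 1.38 for Gata2, 1.22 for Klf1, 1.12 for Gfi1b and 0.84 for Zfpm1. Over all genes the median size of this gap was 0.194, and 3.17% of genes had array 1 more than 1 unit above array 2. Lmo2 and Lyl1 differed by −0.08 and −0.14 between the same arrays. In MN1 the gaps of Gata1, Tal1, Gfi1b, Klf1 and Zfpm1 were smaller and of the other sign, from −0.68 for Zfpm1 to −0.34 for Klf1. In Gr1Mac, Lyl1 had the largest gap of the 10, at 1.23, followed by Gata2 at 0.78. The mean over the 32 measured erythroid genes described below was 8.07 on MN1VP16 array 1 and 7.59 on array 2. Other lists described below also had a higher mean on array 1. These were megakaryocyte (6.75 and 5.93), mast cell and basophil (8.18 and 7.37), monocyte (11.22 and 10.43) and stem and progenitor genes (8.75 and 8.26). The partner, neutrophil, B cell, T and NK cell and stromal lists had a lower mean on array 1. The gap was thus not particular to erythroid genes, and the part of any shared cause in it was not tested.

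**Figure D3:**
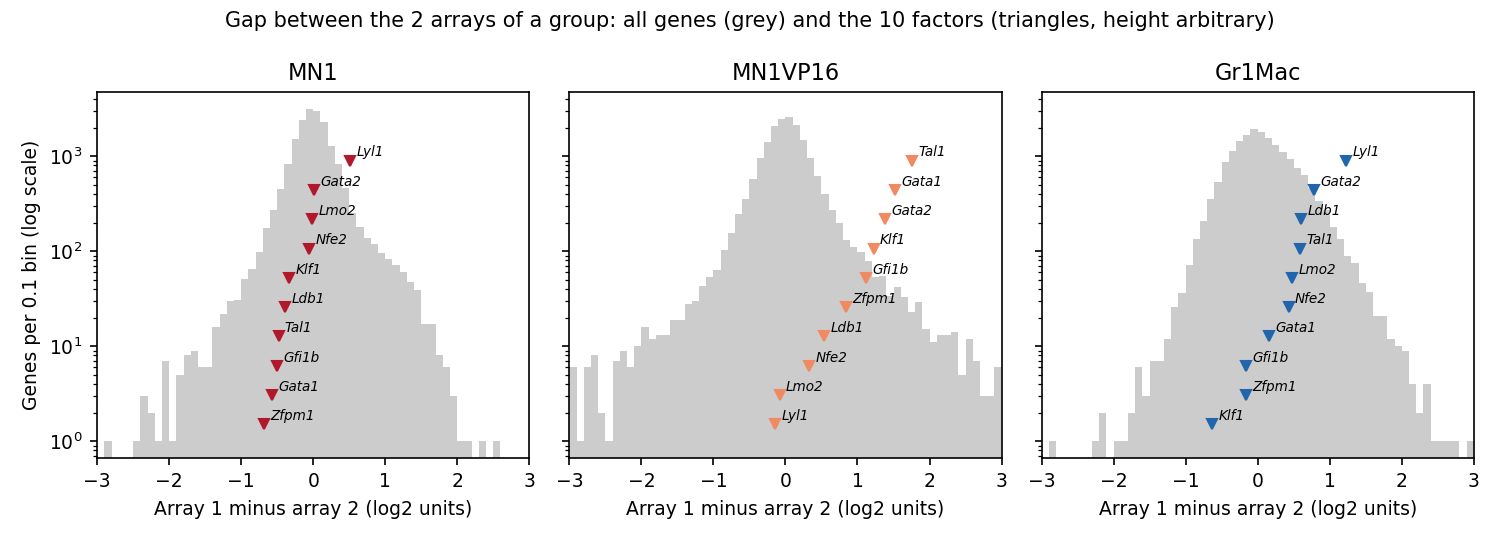
Array 1 minus array 2 of each group in log2 units (horizontal axis), with the number of genes per bin in grey on a log scale; the axis ends at 3 units either way and genes beyond it are not drawn. Triangles mark the 10 factors, their height is arbitrary, and in MN1VP16 the gaps of Tal1, Gata1, Gata2, Klf1 and Gfi1b all exceed 1.

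The other probe sets of 2 members gave the same directions, with smaller differences except for Gata2 between the transduced groups. A further Gata2 probe set (1428816_a_at; the one used above was 1450333_a_at) read 10.08 and 9.52 on the MN1 arrays, 8.56 and 7.06 on those of MN1VP16 and 6.87 and 6.06 on those of Gr1Mac. Over all single-gene probe sets it was called 3.34 ± 0.53 higher in MN1 than in Gr1Mac (adjusted p = 0.00648), where 15% of probe sets were called higher and 11.6% lower. It was 1.35 above Gr1Mac in MN1VP16 (adjusted p = 0.204), where the shares were 3.12% and 2.31%, so the call of Gata2 in that comparison rests on 1 of its 2 probe sets. In MN1VP16 relative to MN1 it was −1.99 ± 0.53 (adjusted p = 0.102), further from 0 than the −1.49 of the probe set used above, and neither was called. A further Zfpm1 probe set (1423603_at; the one used above was 1451046_at) read 7.16 and 7.37 on the MN1 arrays, 6.34 and 5.87 on those of MN1VP16 and 5.96 and 5.69 on those of Gr1Mac. It rose by 1.44 ± 0.22 in MN1 over Gr1Mac (adjusted p = 0.00587), and was 0.28 above it in MN1VP16 (adjusted p = 0.548). In MN1VP16 relative to MN1 it was −1.16 ± 0.22 (adjusted p = 0.0513), where 0.913% of probe sets were called higher and 2.34% lower. The calls of Zfpm1 in MN1VP16, against Gr1Mac and against MN1, thus each rest on 1 of its 2 probe sets.

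Some genes ran almost in parallel with a factor over the 6 arrays. Likeness was measured as the root mean square difference between values centred on each gene's mean, and it was computed for the 9 factors whose group means spanned over 1 log2 unit, which leaves out Lyl1. Nearest to Gata1 were Abcb4, a phospholipid transporter, at 0.0896 log2 units, Msi2, an RNA-binding protein of stem cells, at 0.176, and Icam4, a red cell adhesion protein, at 0.177. Icam4 was also nearest to Tal1, at 0.177, followed by the urea transporter gene Slc14a1 at 0.192 and by Gata1 itself at 0.261. Nearest to Klf1 were Car3 at 0.166, Sphk1 at 0.208 and the red cell membrane gene Ermap at 0.271. Zfpm1 ran closest to Tfr2, a transferrin receptor, at 0.170, then to Cracd at 0.226 and Tshz1 at 0.227. Gfi1b ran closest to A330001L22Rik at 0.130, Epdr1 at 0.155 and Rab4a at 0.159.

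The likeness lists of the other factors held different kinds of genes. Gata2 had Armcx2 at 0.369, the progenitor surface protein gene Cd34 at 0.436 and Hmgn1 at 0.587 as its nearest, a looser likeness than for Gata1. Lmo2, which spans little, was nearest to the ribosomal protein genes Rpl6 at 0.0456, Rpsa at 0.0597 and Rpl13a at 0.0601. Ldb1 was nearest to Klhl21 at 0.0832, Pdcd2 at 0.0842 and Hspbp1 at 0.101, and Nfe2 to Rnf25 at 0.0886, Lrsam1 at 0.107 and Zfand2b at 0.121. With 6 arrays in 3 groups, such parallels mostly repeat the order of the groups.

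Proteins that work with these factors did not move as a body. Of 31 partner and cofactor genes, all measured, 10 were higher and 7 lower in MN1 than in Gr1Mac, with a median of −0.01. Of all genes 17.3% were called higher there and 12% lower. The E proteins that pair with TAL1 were among those higher: Tcf4 by 2.47 (adjusted p = 0.00701), Tcf3 by 1.97 (adjusted p = 0.00168) and Tcf12 by 1.97 (adjusted p = 0.00201). Cbfa2t3, a corepressor of the TAL1 complex, was 1.52 higher (adjusted p = 0.00523). Of 3 genes of the list whose proteins sequester E proteins, Id1 and Id2 were lower in MN1, and Id3, dim on every array, was not called (−0.34, adjusted p = 0.184). Id2 read 8.06 and 7.11 on the MN1 arrays, 10.53 and 9.66 on those of MN1VP16 and 10.02 and 10.45 on those of Gr1Mac, 2.65 lower in MN1 than in Gr1Mac (adjusted p = 0.00614). Id1 was at least 5.24-fold lower (adjusted p = 0.0136).

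Lmo1, a relative of Lmo2, was opposite to it: 5.74 and 5.60 on the MN1 arrays, 7.10 and 7.44 on those of MN1VP16 and 9.67 and 8.97 on those of Gr1Mac, at least 11.2-fold lower in MN1 than in Gr1Mac (adjusted p = 0.00119). Spi1, the myeloid factor PU.1 that opposes GATA1, read 9.82 and 8.99 on the MN1 arrays, 11.20 and 10.76 on those of MN1VP16 and 11.90 and 11.56 on those of Gr1Mac. It was 2.33 lower in MN1 than in Gr1Mac (adjusted p = 0.00430), and 1.58 higher in MN1VP16 than in MN1 without passing the test (adjusted p = 0.0561). Runx1 (0.23, adjusted p = 0.364), Erg (0.11, adjusted p = 0.818), Fli1 (−1.05, adjusted p = 0.0701) and Gfi1, the relative of Gfi1b (−0.27, adjusted p = 0.828), were not called in MN1 against Gr1Mac. Gfi1 read 9.70 and 8.04 in MN1 and 8.83 and 10.68 in MN1VP16, so that its arrays overlapped.

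MN1VP16 against MN1 called 2 partners higher, Id2 by 2.51 (adjusted p = 0.0383) and Lmo1 at least 2.70-fold (adjusted p = 0.0396), and 1 lower, Tcf3 by −1.14 (adjusted p = 0.0355). MN1VP16 against Gr1Mac called Tcf12 (1.24, adjusted p = 0.0283) and the deacetylase gene Hdac2 (1.00, adjusted p = 0.0400) higher, and Lmo1 (−2.05, adjusted p = 0.0204) and Nfe2l2, a relative of Nfe2 (−0.86, adjusted p = 0.0443), lower. The shares of all genes called higher and lower were 1.15% and 2.7% in MN1VP16 against MN1. They were 3.66% and 2.11% in MN1VP16 against Gr1Mac. Of the 3 calls against MN1, that of Id2 was kept without MN1 array 1 and in no other fit without 1 array, and those of Lmo1 and Tcf3 without either Gr1Mac array and in no other. Of the 4 calls against Gr1Mac, those of Tcf12, Hdac2 and Nfe2l2 were lost whichever array was left out, and that of Lmo1 without MN1VP16 array 1 or Gr1Mac array 2. Id1 lost its call in MN1 against Gr1Mac without MN1 array 2, and the 10 partners higher in MN1 than in Gr1Mac became 6 without MN1 array 2. With the control-feature split as a block, 3 partners were called higher and 4 lower in MN1 than in Gr1Mac.

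Erythroid genes, which GATA1 and KLF1 are known to bind, were mostly higher in MN1 than in Gr1Mac, and fewer were called in the other comparisons. Of 40 listed genes 32 were measured, and 20 of these were higher and 2 lower in MN1 than in Gr1Mac, with a median of 2.65. In MN1VP16, 8 were higher and 1 lower than in Gr1Mac (median 0.47), and 0 were higher and 12 lower than in MN1 (median −1.63). The shares of all genes called higher and lower were 17.3% and 12% in MN1 against Gr1Mac. They were 3.66% and 2.11% in MN1VP16 against Gr1Mac, and 1.15% and 2.7% in MN1VP16 against MN1. Car1, a carbonic anhydrase of early red cells, read 13.24 and 13.82 on the MN1 arrays, 11.20 and 9.20 on those of MN1VP16 and 4.73 and 5.18 on those of Gr1Mac. It was at least 207-fold higher in MN1 than in Gr1Mac (adjusted p = 0.00119), and fell by 3.33 in MN1VP16 relative to MN1 (adjusted p = 0.0491). The MN1VP16 arrays again differed, array 1 being the higher.

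Other membrane genes were also higher in MN1 than in Gr1Mac. The water channel gene Aqp1 was at least 42.3-fold higher in MN1 than in Gr1Mac (adjusted p = 0.00145) and fell by 3.20 in MN1VP16 relative to MN1 (adjusted p = 0.0464). Cldn13 was at least 58.9-fold higher in MN1 (adjusted p = 0.00176), and its difference of MN1VP16 from MN1 was −2.91 (adjusted p = 0.0594). Ermap was called lower in MN1VP16 than in MN1, with group means of 8.40 and 11.37. Epor, the erythropoietin receptor gene and a target of GATA1, read 10.10 and 10.62 on the MN1 arrays, 8.10 and 7.47 on those of MN1VP16 and 7.04 and 7.60 on those of Gr1Mac. It was 3.03 higher in MN1 than in Gr1Mac (adjusted p = 0.00217) and fell by 2.57 in MN1VP16 relative to MN1 (adjusted p = 0.0240). MN1VP16 array 2 overlapped the Gr1Mac arrays for Epor.

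The list was not uniform in genes of later red cell maturation. Named after their values were seen, the membrane and cytoskeleton genes Slc4a1 (2.84, adjusted p = 0.0187), Epb42 (2.33, adjusted p = 0.0307), Ank1 (1.89, adjusted p = 0.00467) and Sptb (1.38, adjusted p = 0.0317) were higher in MN1 than in Gr1Mac. Without MN1 array 2, Slc4a1, Epb42 and Sptb lost their calls. Slc4a1 also lost its call without Gr1Mac array 2, Epb42 without either Gr1Mac array and Sptb without MN1 array 1 or Gr1Mac array 1. Alas2, the red cell enzyme that starts haem synthesis, read 9.11 and 10.39 on the MN1 arrays, 8.85 and 7.87 on those of MN1VP16 and 10.98 and 9.72 on those of Gr1Mac, with a difference of MN1 from Gr1Mac of −0.60 (adjusted p = 0.527). Hba-a2, an alpha globin gene, read 8.69 and 8.10 on the MN1 arrays, 8.98 and 8.65 on those of MN1VP16 and 9.79 and 9.53 on those of Gr1Mac. It was 1.27 lower in MN1 than in Gr1Mac (adjusted p = 0.0136), and the only other erythroid gene called lower was the cell cycle gene E2f2, at −1.93 (adjusted p = 0.00309). The probe sets of the embryonic globin gene Hbb-y and the alpha-type globin genes Hba-a1 and Hba-x were dim on every array. Whether these probe sets report their transcripts was not tested. Hbb-bh1 passed the dim level on MN1 array 2 alone. The adult beta globin genes Hbb-b1, Hbb-bs and Hbb-bt were not among the genes measured here. None of the 5 measured globin genes was called higher in MN1 than in Gr1Mac.

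The erythroid counts moved with single arrays, as did the counts over all genes given in the last section. The 12 lower in MN1VP16 than in MN1 became 0 without MN1 array 2, 2 without MN1VP16 array 2 and 5 without either Gr1Mac array. The 8 higher in MN1VP16 than in Gr1Mac became 0 without Gr1Mac array 2, 3 without Gr1Mac array 1, 4 without MN1VP16 array 1 and 5 without either MN1 array. The 20 higher in MN1 than in Gr1Mac stayed between 17 and 20 with 1 array left out, but became 11 with the control-feature split as a block. That block gave 4 higher in MN1VP16 than in Gr1Mac and 2 lower than in MN1, and the Xist split as a block gave 3 and 0. With 1 array left out, the call of Hba-a2 was lost without MN1 array 2 or Gr1Mac array 1. E2f2, the 1 gene lower in MN1VP16 than in Gr1Mac, kept that call without MN1VP16 array 1 and in no other such fit. In MN1VP16 against MN1, Car1 and Aqp1 kept their calls without MN1VP16 array 1 and in no other fit without 1 array, and Epor lost its call without MN1 array 2 or MN1VP16 array 2.

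Most stem and progenitor genes were higher in MN1 than in Gr1Mac, and fewer were called in MN1VP16. Of 15 measured of 16, 12 were higher and 1 lower (Spi1) in MN1 than in Gr1Mac, with a median of 3.54, and 7 were higher and 0 lower in MN1VP16, with a median of 1.94. All genes were called higher and lower at 17.3% and 12% in MN1 against Gr1Mac. In MN1VP16 the shares were 3.66% and 2.11% against Gr1Mac, and 1.15% and 2.7% against MN1. Hoxa9, a leukaemia-associated homeobox gene, was at least 105-fold higher in MN1 (adjusted p = 0.00117) and Mycn 39.2-fold (adjusted p = 0.00098). Cd34 read 10.50 and 11.15 on the MN1 arrays, 11 and 9.5 on those of MN1VP16 and 4.96 and 4.00 on those of Gr1Mac, so that the transduced groups overlapped. It was at least 31.8-fold higher in MN1 than in Gr1Mac (adjusted p = 0.00155), and its difference between the transduced groups was −0.58 (adjusted p = 0.622). Hlf (−3.19, adjusted p = 0.00400) and Myc (−2.00, adjusted p = 0.0334) were the 2 stem and progenitor genes called lower in MN1VP16 than in MN1. Without Gr1Mac array 2 the count of 7 became 2, and without either MN1 array it became 4, as it did without MN1VP16 array 1 or with the control-feature split as a block. The count of 2 became 1 without MN1 array 2 or MN1VP16 array 2 and 4 without MN1VP16 array 1, Hlf being called in each of the 6 fits without 1 array and Myc without either Gr1Mac array alone.

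Mast cell and basophil genes, another lineage in which GATA2 acts, were split. Of 14 measured of 16, 7 were higher and 1 lower in MN1 than in Gr1Mac, with a median of 2.57. In MN1VP16 3 were higher than in Gr1Mac and 1 was lower than in MN1. Beside these counts, 17.3% of all genes were called higher and 12% lower in MN1 than in Gr1Mac. In MN1VP16, 3.66% of all genes were called higher than in Gr1Mac and 2.7% lower than in MN1. Cpa3, a mast cell protease gene, read 12.93 and 13.24 on the MN1 arrays, 12.48 and 12.34 on those of MN1VP16 and 5.59 and 4.08 on those of Gr1Mac. It was at least 152-fold higher in MN1 (adjusted p = 0.00098) and at least 95.4-fold higher in MN1VP16 (adjusted p = 0.00769) than in Gr1Mac, and −0.67 between the transduced groups (adjusted p = 0.473). Like Gata2, it was thus bright in both transduced groups. The IgE receptor chain gene Ms4a2 was 137-fold higher in MN1 (adjusted p = 0.00215) and 19.8-fold higher in MN1VP16 (adjusted p = 0.0334), and Slc18a2 at least 10.1-fold higher in MN1 (adjusted p = 0.00541). Cyp11a1, also called higher in both transduced groups, read 6.75 and 6.93 on the MN1 arrays and 4.06 and 4.22 on those of Gr1Mac. On the MN1VP16 arrays it read 8.84 and 7.05, a mean above that of MN1. Kit, which encodes the stem cell factor receptor, was 2.52 higher in MN1 than in Gr1Mac (adjusted p = 0.00182) and fell by 1.43 in MN1VP16 relative to MN1 (adjusted p = 0.0408). The mast cell factor gene Mitf was the gene called lower in MN1 (−2.05, adjusted p = 0.00907), a call lost without MN1 array 1. Without either MN1 array or either Gr1Mac array the 3 higher in MN1VP16 became 1, Cpa3, and they became 1 also with the Xist split as a block. Kit lost its call in MN1VP16 against MN1 without any single MN1 or MN1VP16 array, and without MN1VP16 array 1 3 other genes of this list were called lower there.

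Megakaryocyte genes were called in both directions. Of 18 measured of 20, 4 were higher and 4 lower in MN1 than in Gr1Mac, with a median of 0.16. There 17.3% of all genes were called higher and 12% lower. In MN1VP16 against MN1, 0 of 18 were called in either direction, where 1.15% of all genes were called higher and 2.7% lower. Pf4, platelet factor 4, read 6.54 and 6.96 on the MN1 arrays, 9.0 and 6.81 on those of MN1VP16 and 6.05 and 6.32 on those of Gr1Mac, and was not called (MN1 minus Gr1Mac 0.56, adjusted p = 0.590). Itga2b, the gene of CD41, read 10.11 and 9.91 on the MN1 arrays, 10.11 and 8.08 on those of MN1VP16 and 7.09 and 6.76 on those of Gr1Mac. It was 3.09 higher in MN1 than in Gr1Mac (adjusted p = 0.0133), beside Gp5 (at least 6.87-fold, adjusted p = 0.0393), Vwf (at least 2.00-fold, adjusted p = 0.0128) and Treml1 (3.13-fold, adjusted p = 0.00718). Clec1b (at least 6.56-fold, adjusted p = 0.00366), Tbxas1 (4.70-fold, adjusted p = 0.0133), Itgb3 (4.48-fold, adjusted p = 0.0253) and Selp (3.76-fold, adjusted p = 0.00251) were lower in MN1. In MN1VP16, Clec1b and Selp were lower than in Gr1Mac as well. The 4 higher became 0 without MN1 array 2, 1 without Gr1Mac array 1 and 2 without MN1 array 1 or Gr1Mac array 2, and the 4 lower became 2 without MN1 array 2. With the control-feature split as a block 0 were higher and 2 lower, and with the Xist split 2 were higher and 3 lower. Without MN1VP16 array 2, 3 megakaryocyte genes were called higher in MN1VP16 than in Gr1Mac and 1 higher than in MN1, and without MN1VP16 array 1, 2 were called lower than in MN1. In MN1VP16 against Gr1Mac, Selp lost its call whichever array was left out and Clec1b without any single MN1VP16 or Gr1Mac array.

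**Figure D4:**
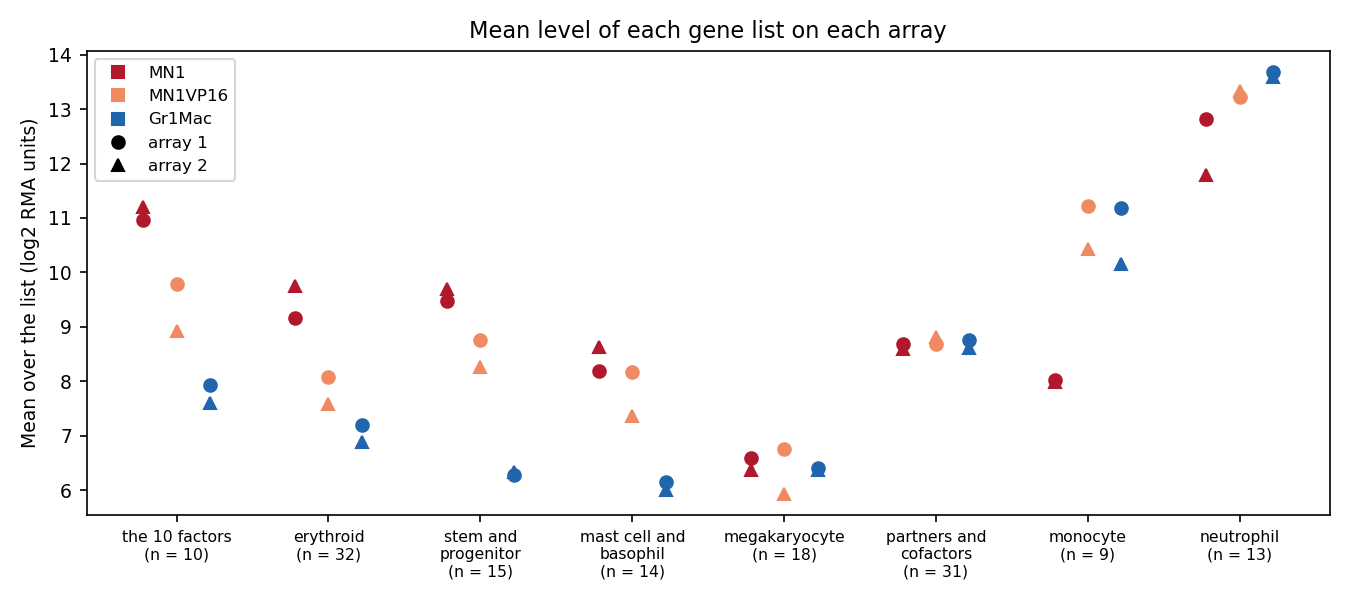
Mean log2 RMA level (vertical axis) of the 10 factors and of 7 gene lists on each array, with circles for array 1 and triangles for array 2, and n the number of genes measured. The factor mean is 10.96 to 11.21 in MN1, 8.93 to 9.78 in MN1VP16 and 7.61 to 7.94 in Gr1Mac, and the monocyte mean is lowest in MN1.

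Markers of other cells in the sorts moved beside the factors. Over 9 measured of 12 monocyte markers the mean level was 7.98 to 8.03 in MN1, 10.43 to 11.22 in MN1VP16 and 10.15 to 11.18 in Gr1Mac. Of these, 6 were lower in MN1 than in Gr1Mac, and 5 (Csf1r, Ccr2, F13a1, Irf8 and Klf4) were higher in MN1VP16 than in MN1. Among all genes 12% were called lower in MN1 than in Gr1Mac and 1.15% higher in MN1VP16 than in MN1. The same shares stand beside the neutrophil counts below. Klf4, a monocyte relative of Klf1, read 5.36 and 5.56 on the MN1 arrays, 10.93 and 10.34 on those of MN1VP16 and 10.79 and 9.85 on those of Gr1Mac. Over 13 measured of 14 neutrophil markers the mean was 11.80 to 12.81 in MN1, 13.23 to 13.34 in MN1VP16 and 13.59 to 13.68 in Gr1Mac, with 6 lower in MN1 than in Gr1Mac and 1 (Itgam) higher in MN1VP16 than in MN1. Granulocyte RNA was thus bright on all 6 arrays, with S100a8, named after its values were seen, reading 14.60 and 14.98 on the MN1 arrays, 15.08 and 15.16 on those of MN1VP16 and 15.07 and 15.11 on those of Gr1Mac. The counts of 6 became 3 without MN1 array 2 or Gr1Mac array 1, and that of the neutrophil markers also without Gr1Mac array 2, while the 5 monocyte markers became 0 without MN1 array 2 and 3 without MN1 array 1, and Itgam kept its call against MN1 without MN1 array 1 alone. With the control-feature split as a block the 6 neutrophil markers became 1 and the 6 monocyte markers 5, and with the Xist split they became 3 and 5, while the 5 monocyte markers higher in MN1VP16 than in MN1 became 4 and 0. The part of this cell makeup in the levels of the factors was not tested.

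Lymphoid and stromal markers were low in their list means but not gene by gene. The mean over 7 measured of 8 B cell markers was 5.09 to 5.22 in MN1, 6.12 to 6.51 in MN1VP16 and 5.07 to 5.61 in Gr1Mac, and Cd79a was the 1 called in MN1VP16 against MN1, Vpreb1 the 1 higher in MN1VP16 than in Gr1Mac and Ms4a1 the 1 lower in MN1 than in Gr1Mac. All 3 lost their calls without Gr1Mac array 1 and without Gr1Mac array 2. In MN1VP16, 1.15% of all genes were called higher than in MN1 and 3.66% higher than in Gr1Mac. In MN1, 12% were called lower than in Gr1Mac. Over 7 measured of 9 T and NK cell markers the mean was 5.79 to 6.60 on all arrays, and over 8 stromal and endothelial markers it was 5.22 to 5.92. Named after its values were seen, the cytotoxic granule gene Nkg7 read 9.82 and 8.82 on the MN1 arrays, 9.36 and 12.05 on those of MN1VP16 and 9.76 and 9.51 on those of Gr1Mac, and the B cell receptor gene Cd79b reached 8.74 on MN1VP16 array 1. Cd3d, at 8.66 and 7.94 on the Gr1Mac arrays, was lower in both transduced groups than in Gr1Mac, as was Acta2, at 10.10 and 10.27 on the Gr1Mac arrays, whose call in MN1VP16 was lost without Gr1Mac array 2.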

How the data were processed

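Per the labels' protocols, TRIZOL extracts were labelled with a 3' IVT kit, so probes read the 3' end of transcripts. The authors deposited log2 expression values per probe set, made with RMA per the submitters' processing notes. Its version is not given in the sources used here. Quantile normalisation in RMA gives all arrays 1 distribution, so a change in total RNA cannot be seen, and differences of dim genes are compressed. The number of arrays limits the precision.

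Of 45037 probe sets besides 64 control features, GEO's platform annotation gave 34945 exactly 1 gene, 932 several and 9160 none; the latter kinds were left out. A RefSeq table (GRCm38.p6) matched 34741 and changed 0 symbols. Each of 18193 genes was represented by its brightest probe set over all arrays. limma 3.58.1 in R 4.3.3 (lmFit, eBayes, group as the only term, all 6 arrays, 3 residual degrees of freedom) gave differences, standard errors, 95% intervals and Benjamini-Hochberg adjusted p-values, and was tested on simulated data. Folds are antilogs of log2 differences. A lower bound takes, on each dim array, the higher of 5.84 and the reading. An exact permutation test over 2 arrays against 2 cannot reach 0.05.

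Members and lists were chosen with earlier results of these data known. Besides the members, every list gene was a candidate for naming: the 3 largest called rises and falls in MN1 against Gr1Mac and MN1VP16 against MN1, all called genes where 5 or fewer were, and a set of lineage genes named whatever their values. Not every gene that met this rule is named. Likeness took, per factor, the 3 nearest genes. Alternatives were the mean of a gene's probe sets, a fit on all single-gene probe sets, leaving out probe sets with a suffix for shared sequence, a filter on dim genes, a trended prior, array scaling, fits of 2 groups, blocks for replicate number, Xist and control features, and leaving out each array. No protein sequences were used here.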

Additional observations from a re-analysis of the deposited data

How the results depend on the processing

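Of 180 differences with 1 array left out, 131 kept direction and side of the threshold, 42 lost the call, 4 gained one and 3 changed sign; under the other settings 225 of 261 kept both, 31 lost the call, 2 gained one and 3 changed sign. The cause of each change was not tested, beyond fewer arrays in the fits that leave one out or use 2 groups. A group left with 1 array adds nothing to the spread, so some settings are the same fit for a comparison. Leaving out an array of the group not compared repeats the fit of 2 groups. In some comparisons the Xist and control-feature blocks repeat a fit without 1 array. The counts above thus hold repeats.

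For MN1 against Gr1Mac, the count of 8 factors higher became 5 of 7 when probe sets with the suffix _x_at, _s_at and _a_at were left out, which leaves Gata2, Lmo2 and Ldb1 unmeasured. The count of 1 lower became 2 with the Xist split as a block and 0 with the control-feature block, and ran from 0 to 2 with 1 array left out. For MN1VP16 against Gr1Mac, the 4 higher became 2 without those probe sets, 2 with the arrays shifted to 1 median, 1 with the 2 groups alone, 2 with the Xist block and 2 with the control-feature block, and ran from 0 to 5 with 1 array left out. The 1 lower there became 0 with the 2 groups alone, 0 with the Xist block, 0 with the control-feature block and 0 whichever array was left out. For MN1VP16 against MN1, the 5 lower became 1 with the 2 groups alone, 0 with the Xist block and 3 with the control-feature block, and ran from 0 to 6 with 1 array left out. Changes of sign, all of differences not called with all 6 arrays, were Lmo2 in MN1VP16 against MN1 at 0.29 (Xist block), Nfe2 there at 0.38 (Xist block), 0.12 (control-feature block), the same 0.12 without MN1VP16 array 2, and Lyl1 against Gr1Mac. With 1 array left out, Nfe2 there ran from −0.22 to 0.12, Lyl1 in MN1 against Gr1Mac from −1.14 without Gr1Mac array 2, where it was called lower, to 0.095 without Gr1Mac array 1, and Lyl1 in MN1VP16 against Gr1Mac from −0.47 without Gr1Mac array 2 to 0.76 without Gr1Mac array 1.

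Deviations of same-numbered arrays correlated at −0.0461 for MN1 and MN1VP16, −0.0485 for MN1 and Gr1Mac and 0.0804 for MN1VP16 and Gr1Mac over 18193 genes. Each group gives a single gap between its arrays, so these values cannot settle whether the replicate numbers pair the arrays. With the replicate block, the 4 higher in MN1VP16 than in Gr1Mac became 2, Lmo2 (adjusted p = 0.0681) and Zfpm1 (adjusted p = 0.0665) losing the call, and the 5 lower in MN1VP16 than in MN1 became 4, as Tal1 lost its call in MN1VP16 against MN1 (adjusted p = 0.0516).

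Over all genes, calls in MN1 against Gr1Mac (3147 higher, 2187 lower) became 914 and 572 with the control-feature block, 2015 and 1365 without MN1 array 1 and 1519 and 899 without MN1 array 2. Those in MN1VP16 against Gr1Mac (666 and 384) moved by over 1.5 times in 1 or both directions whichever array was left out, down to 22 and 27 without Gr1Mac array 2, and were 181 and 166 with the 2 groups alone, 272 and 169 with the control-feature block and 1018 and 225 with the Xist block. Those in MN1VP16 against MN1 (209 and 492) moved likewise when any array other than MN1VP16 array 1 was left out, down to 3 and 23 without MN1 array 2, and were 129 and 377 with the arrays shifted to 1 median, 205 and 327 with the replicate block, 104 and 350 with the 2 groups alone, 73 and 130 with the control-feature block and 0 and 0 with the Xist block.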
